A study of Mus musculus with 47 samples.

Results

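Mouse embryonic stem (ES) cells of the wild type were kept with the Gsk3 inhibitor CHIR99021 throughout their culture in Fgf2, or were given it late, and the 2 kinds of culture were compared over all genes of an Illumina expression array. The comparison was chosen by the array titles alone. It takes 3 continuous and 3 late arrays of the 47 arrays in the series. Continuous cultures (ContinuedCH) grew in N2B27 with 12 ng/mL Fgf2 and 3 uM CHIR99021, and the labels record no duration for them. Late cultures (EpiLC+CH) had 12 ng/mL Fgf2 in N2B27 for 3 days, after which 3 uM CHIR99021 was present for 24 hours. At harvest both groups of cells were therefore in the same 3 components, and neither had LIF or PD0325901, an inhibitor of the kinase MEK. Days of culture cannot be told apart from the timing of CHIR99021. Wild-type reference levels came from 3 arrays of naive ES cells in N2B27 with 1 uM PD0325901, 3 uM CHIR99021 and 1000 U/mL LIF (ESC), and from 3 arrays of epiblast-like cells in 12 ng/mL Fgf2 without CHIR99021 (EpiLC), with no time given. The labels describe biological triplicates of 1 wild-type line whose origin they do not name. The tests also used ESC, EpiLC and EpiLC+CH cultures of knockout cells. These are labelled as lacking the genes Tcf7l1 (KO), Tcf7, Tcf7l2 and Lef1 (3XKO), or all of these (4XKO). The p values therefore measure a spread between cultures that is pooled over the knockout and wild-type cells, not that of the wild-type line alone.

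Gsk3 marks beta-catenin for destruction, and its inhibition lets beta-catenin accumulate and act through the TCF/LEF factors, as a Wnt signal does. In ES cells the best known of these factors is Tcf7l1, a repressor of many naive pluripotency genes that beta-catenin relieves. Cells moved from naive medium into Fgf2 lose the naive gene network and gain genes of the formative epiblast. Formative cells answer Wnt signals with genes of the primitive streak, the region of the embryo where mesoderm and endoderm form.

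Array values are background-subtracted intensities, given below as deposited, in the order of replicates 1, 2 and 3. A value under 13.6, the size of the lowest (negative) value of the table, was taken as below background. For tests, a floor of 1 was applied, followed by a log2 transform and normalization of the arrays to a common distribution. Each difference is continuous minus late on that log2 scale, with its standard error (SE) from a limma fit of 39 arrays in 13 groups. These are the wild-type and knockout groups named above, which share a common estimate of the spread for each probe. A probe was called when its adjusted p over 25697 probes (Benjamini-Hochberg) was under 0.05. A fold is the ratio of the geometric means of the normalized, floored values, so it can differ from the ratio of the plain means. It is "at least" the brighter geometric mean over 13.6 where the dimmer group lay below that limit on all 3 arrays. For those genes the fitted log2 difference depends on the floor, so only the bound and the adjusted p are given. In RNA from whole cultures, fewer cells of a type and less RNA per cell cannot be told apart.

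The 6 arrays were alike in quality, with 31.2% to 31.3% of values under 1 and 44.6% to 44.7% above background. Replicates correlated at 0.964 to 0.971 across probes, which are not independent replicates. Continuous replicate 2 correlated more closely with an EpiLC array of the line labelled as lacking Tcf7l1 (0.976) than with its own group (0.971). With values floored at the background limit it was nearest to its own group, at 0.996 against 0.994. Its Tcf7l1 intensity was 2127, against 1757 to 1947 on the other 5 arrays and 680 to 744 on the EpiLC arrays of the line labelled as lacking Tcf7l1. That line kept signal above background, and the labels do not say which part of the gene was deleted or where the probe lies. Without this array 4046 probes were called instead of 4306, and 3611 were called in the same direction in both fits. The summed intensity of 6 naive markers (Klf4, Tbx3, Nr5a2, Esrrb, Zfp42 and Tcl1) was 12626 to 12974 in continuous and 4321 to 4717 in late cultures, between 20083 to 22061 in ESC and 1982 to 2122 in EpiLC. The 5 formative markers summed to 5175 to 5405 in continuous and 13524 to 13808 in late cultures. Defining markers of definitive endoderm (3), neural cells (3), fibroblasts (6), and blood and endothelium (4) were below background in both groups. Other sets were not wholly below it. Evx1 (primitive streak) was above background on all 6 arrays. Eomes (primitive streak) and Gata6 (extraembryonic endoderm) reached the background limit on at least 1 array of each group. Of the trophoblast markers, Cdx2 did so in continuous and Krt7 in late cultures. The summed intensity of these sets was at most 86.5 (streak), 25.9 (extraembryonic endoderm) and 44.2 (trophoblast).

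Of 25697 probes, 4306 were called (16.8%), 2263 higher (8.81%) and 2043 lower (7.95%) in continuous cultures. With the brightest probe for each gene, 3159 of 16593 genes were called (19%), 1696 higher (10.2%) and 1463 lower (8.82%). Both group means lay above background for 10774 probes. Of these, 3468 were called, and 815 of the called probes differed over 2-fold, 429 higher and 386 lower. Another 259 called probes were below background in both groups and support no fold. Of the 16593 genes, 7539 were below background on all arrays of both groups. Shares over all genes count these too, and so understate the share called among expressed genes. Counts for the gene lists below stand beside these shares. Against untreated EpiLC, 4944 probes (19.2%) were called for continuous and 1674 (6.51%) for late cultures. These comparisons share the EpiLC arrays with each other, so their counts stand side by side only. Continuous cultures differed from ESC at 5658 probes (22%).

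Naive pluripotency genes were higher in continuous cultures. Of 17 measured members 12 rose and 1, Gbx2, fell, with a median difference of 1.25 against 0.00 over all genes. Over all genes 10.2% were called higher and 8.82% lower. This and the other gene lists were chosen with earlier results of these data known. Their counts and medians are therefore descriptions. Esrrb, a nuclear receptor gene of the naive network, read 6896, 6539 and 6821 on continuous arrays and 3050.3, 2719.7 and 2766 on late arrays, a 2.38-fold difference (log2 difference 1.25, SE 0.06, adjusted p = 1.64e-14). Tcl1, which encodes a co-activator of the kinase Akt, read 1339, 1222 and 1586 against 204, 146 and 228, 7.26-fold (log2 difference 2.86, SE 0.16, adjusted p = 7.47e-14). For both genes every continuous array stood above every late array, and the ESC means (± SD, n = 3) of 11172 ± 877 (Esrrb) and 1786 ± 117 (Tcl1) were higher again. Tbx3, a T-box factor gene, read 307, 369 and 342 against 36.1, 43 and 43.4, 8.31-fold (log2 difference 3.06, SE 0.20, adjusted p = 1.15e-12), and was below background in EpiLC. Jam2, a junctional adhesion gene that marks naive cells, read 294, 264 and 429.9 against 38.9, 20.0 and 40.4, 10.2-fold (log2 difference 3.35, SE 0.40, adjusted p = 2.84e-07). It had the largest rise of any called gene measured above background in both groups.

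The nuclear receptor gene Nr5a2, whose product regulates Pou5f1, gave 726, 808 and 695 in continuous and 209, 247 and 201 in late cultures, 3.40-fold higher (log2 difference 1.77, SE 0.16, adjusted p = 1.36e-09). Of the Klf factor genes of the naive network, Klf2 gave 1386, 1755 and 1556 against 499.7, 470.0 and 572 (3.04-fold), Klf4 263, 272 and 392 against 114, 87.9 and 151 (2.64-fold) and Klf5 2820.0, 2605 and 2458 against 1617, 1736 and 1636 (1.58-fold). None of these 3 genes had overlapping groups. Zfp42, the classical marker Rex1, gave 3374, 3417 and 3138 against 1104, 1078 and 1251 (2.90-fold). Smaller rises were seen for the growth factor gene Fgf4 (1.93-fold, with overlapping arrays), the adhesion gene Pecam1 (1.51-fold) and Dppa3 (1.90-fold), a maternal factor gene whose continuous values of 186, 224 and 149 exceeded the ESC mean of 31 ± 5.69. Fgf4 was not called without late replicate 3 (adjusted p = 0.0832), nor was Pecam1 without any single array of the 6 (adjusted p = 0.0551 to 0.168). Gbx2, a homeobox gene that sustains self-renewal in mouse cells, went the other way, with 681, 816 and 645 against 942, 858 and 1004 (log2 difference -0.39, SE 0.08, adjusted p = 0.000683). Nanog was not called: its values of 3338, 2306 and 3043 and 1969, 2084 and 2841 overlapped (log2 difference 0.34, 95% interval -0.04 to 0.71, adjusted p = 0.259), although the EpiLC mean was only 952 ± 113.

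The naive level was reached to different degrees. Relative to the ESC mean, continuous cultures held 77.4% of the Tcl1 intensity, 73.3% of Nr5a2, 67% of Klf2, 67.4% of Zfp42 and 60.4% of Esrrb. They held 28.8% of Klf4, 36.4% of Klf5, 40.2% of Jam2 and 23.5% of Tbx3. Tbx3 and Jam2, with the largest folds between continuous and late cultures in the list, were thus among those farthest under their ESC level. Among genes of pluripotency in general, 1 of 11 rose (Dppa5a, an RNA-binding protein gene of ES cells, 1.64-fold) and 2 fell. Those that fell were Lin28a, whose product blocks let-7 maturation, with 179, 190.3 and 141 against 445, 433 and 423, and Utf1, a chromatin factor gene, with 591, 618 and 589 against 850.0, 1000.0 and 928. Pou5f1, the gene of Oct4, gave 1865, 1771 and 1512 against 2023, 2651 and 2023 and was not called (log2 difference -0.37, 95% interval -0.68 to -0.07, adjusted p = 0.0955). Sox2 overlapped between the groups (adjusted p = 0.89).

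**Figure D1:**
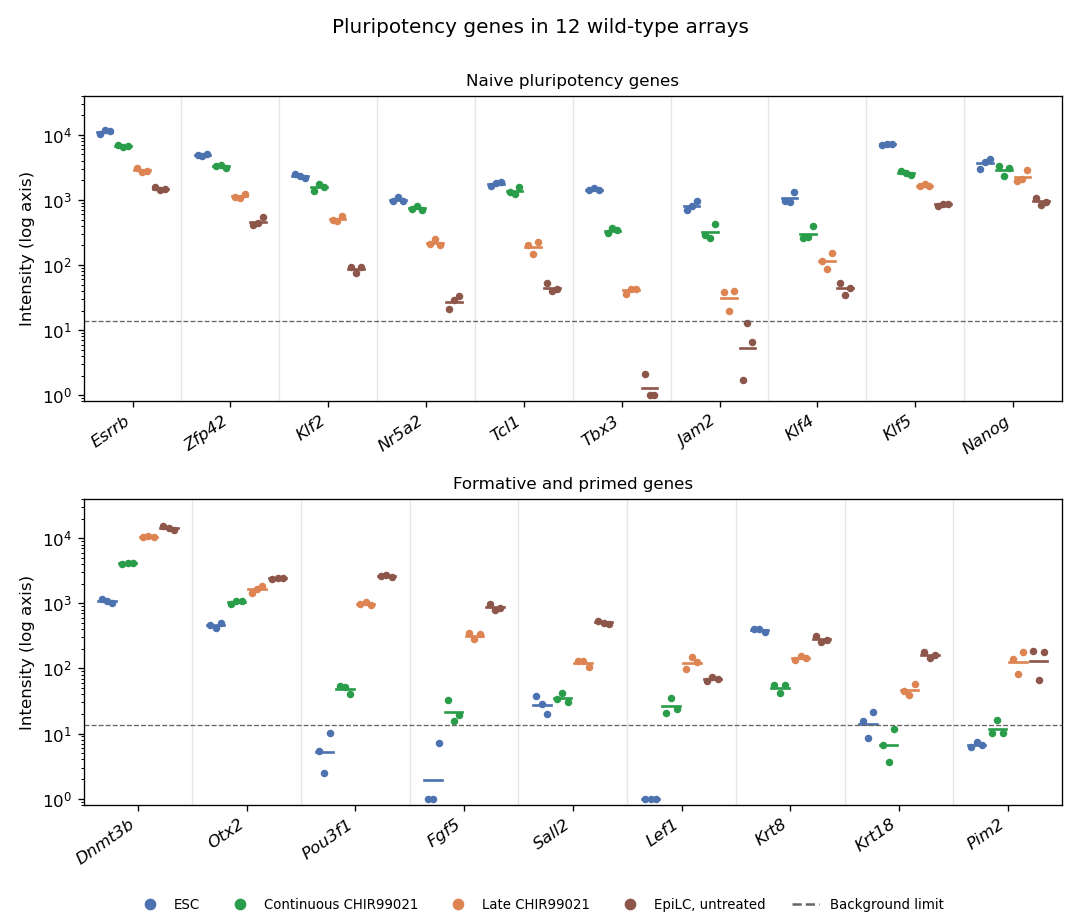
Intensity (log axis) of naive genes (top) and formative and primed genes (bottom) on each of 12 wild-type arrays; points are arrays, bars are means of log2 values, values under 1 are drawn at 1 and the dashed line is the background limit of 13.6. Esrrb, at 6539 to 6896 on continuous arrays, lies above all late arrays, while the Nanog arrays overlap and Pou3f1 falls from 932 or more on late arrays to 54.4 or less on continuous arrays.

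Genes of the formative and primed epiblast were lower in continuous cultures, with 11 of 19 measured members called lower and none higher (median difference -0.76). Over all genes 8.82% were called lower. Pou3f1, a POU factor gene of the epiblast, read 54.4, 52.5 and 40.9 on continuous and 979, 1059.6 and 932 on late arrays, 20.2-fold lower (log2 difference -4.34, SE 0.46, adjusted p = 3.04e-08). Fgf5, the standard formative marker, read 33, 15.7 and 19.4 against 346, 283 and 337, 14.9-fold lower (log2 difference -3.89, SE 0.58, adjusted p = 9.60e-06). The groups did not overlap for either gene, and the EpiLC means of 2641 ± 87.8 and 880.5 ± 98 were above both. Dnmt3b, which encodes a de novo DNA methyltransferase, read 4093, 4191 and 4142 against 10602, 10702 and 10466, 2.56-fold lower (log2 difference -1.35, SE 0.08, adjusted p = 4.73e-13). Otx2, a homeobox gene that opens formative enhancers, read 960.3, 1104 and 1089 against 1466, 1635 and 1862, 1.57-fold lower (log2 difference -0.65, SE 0.09, adjusted p = 1.89e-06). Dnmt3b and Otx2 stood above the ESC means of 1087 ± 66.7 and 458 ± 44.8, whereas the zinc finger gene Sall2, at 34, 41.8 and 30.5 against 131, 129 and 106, was close to its ESC mean of 28.7 ± 8.60. The keratin gene Krt8 was 2.87-fold lower, at 54.8, 41.8 and 54.7, and lay under its ESC mean of 386 ± 21.3 as well as under late cultures. Krt18, its filament partner, was below background in continuous cultures and at least 3.41-fold lower. Pim2, a serine kinase gene, was above background on 1 of 3 continuous arrays (10.2, 16.3 and 10.1) and on all late arrays (138, 83.4 and 178).

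Lists of probes defined on other arrays were read in the same comparison. Among 1671 probes that fell over 2-fold from wild-type ESC to EpiLC, 848 (50.7%) were higher and 49 lower in continuous than in late cultures, with a median difference of 0.63. Among 1591 probes that rose over 2-fold, 800 (50.3%) were lower and 34 higher, with a median of -0.66. Over all probes 8.81% were higher and 7.95% lower with a median of 0.00. The 6 arrays compared had entered the choice of these probes only through the shared normalization and the shared estimate of the spread. Placed on a scale from 0% in EpiLC to 100% in ESC, the median fallen probe stood at 50.7%, 52.9% and 49.5% on the continuous arrays. On the late arrays it stood at 16.0%, 16.7% and 12.6%. The median risen probe stood at 48.5%, 47.9% and 49.2% against 12.6%, 13.4% and 13.8%. The continuous cultures thus lay about midway on both lists and the late cultures nearer to EpiLC, as a description without a test.

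**Figure D2:**
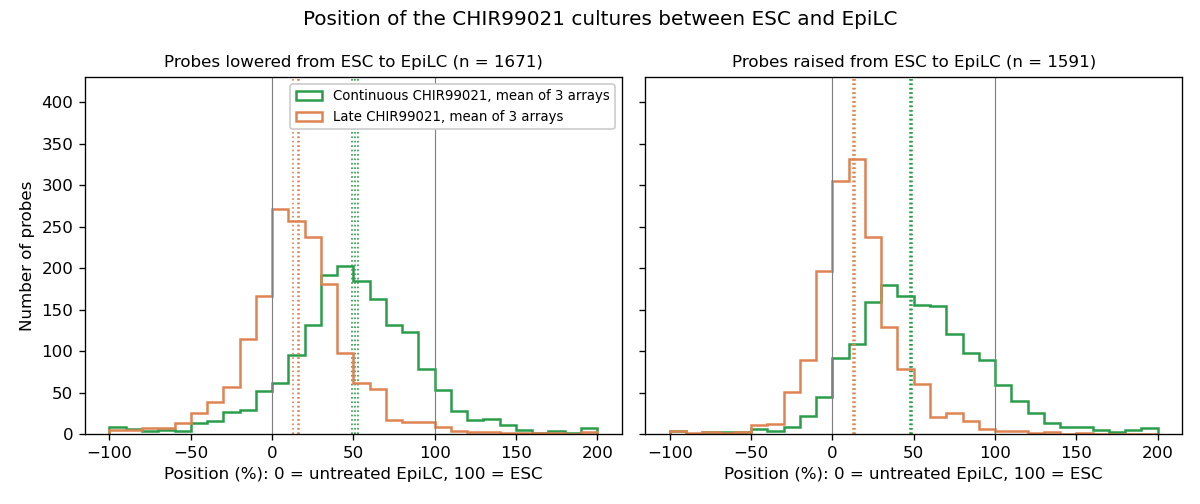
Number of probes by position between untreated EpiLC (0%) and ESC (100%), for 1671 probes lowered (left) and 1591 raised (right) from ESC to EpiLC; solid outlines are group means of 3 arrays, dotted lines the medians of single arrays, and positions beyond the axis are drawn in the end bins. The continuous medians lie at 47.9% to 52.9% and the late medians at 12.6% to 16.7%, and both distributions are broad.

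Untreated EpiLC of the line labelled as lacking the repressor Tcf7l1, compared with wild-type EpiLC, defined another pair of lists. The 6 arrays entered these too only through the shared normalization and spread, and the labels name 1 line for that genotype. Of 979 probes raised over 2-fold in that line, 705 (72%) were higher and 12 lower in continuous than in late cultures (median 1.08). Of 886 lowered probes, 645 (72.8%) were lower and 3 higher (median -1.30). The response to CHIR99021 in EpiLC that keep Tcf7l1 but lack Tcf7, Tcf7l2 and Lef1 gave smaller lists. Of its 205 raised probes 106 were higher and 27 lower in continuous cultures, and of its 188 lowered probes 89 were lower and 23 higher. From naive medium with LIF and PD0325901, CHIR99021 raised 21 probes, of which 9 were higher and 3 lower here, and lowered 12, of which 4 were higher and 3 lower.

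Genes of the Wnt response itself did not move one way. Of 23 measured feedback genes and targets, 2 were higher (Bmp4 and Notum) and 5 lower (Sp5, Sp8, Lef1, Nkd2 and Fzd7) in continuous cultures. Of the 23, 9 were below background in both groups, and over all genes 19% were called. Axin2, the scaffold gene most used as a readout of beta-catenin, gave 253, 253 and 229 on continuous and 214, 255 and 234 on late arrays. The groups overlapped (log2 difference 0.07, 95% interval -0.24 to 0.37, adjusted p = 0.934), and both stood about as high as ESC (198 ± 24.2) and above EpiLC (23.4 ± 3.63). Tnfrsf19, a receptor gene induced by Wnt, gave 210.2, 199 and 216 against 243, 226 and 291 and was not called (log2 difference -0.27, 95% interval -0.63 to 0.09). Sp5, a zinc finger gene that beta-catenin induces directly, gave 210.3, 213 and 212 against 984, 833 and 1147, 4.63-fold lower (log2 difference -2.21, SE 0.37, adjusted p = 4.14e-05), and was below background in EpiLC. Its continuous values lay under the ESC mean of 301 ± 14.4. The related gene Sp8 was 2.04-fold lower, at 29.8, 32.5 and 30.2 against 61.9, 61.2 and 66.

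The promoters of called naive and Wnt genes were searched, on both strands, for CTTTGAT (a TCF/LEF motif), CTTTGTT (shared by TCF/LEF and SOX factors) and TCAAGGTCA (an ESRRB/NR5A2 motif). None of these overlaps another. Windows run from 250 bases before to 50 after a start, from RefSeq on GRCm38.p6, where 3.73%, 5.85% and 0.423% of 32851 windows hold them. Of 8 called naive genes with a window, only Nr5a2 held a match, to CTTTGTT. Of 6 called Wnt genes, Sp5 held CTTTGAT and CTTTGTT, and Fzd7 held CTTTGTT. No match says only that these letters are not in this window. The windows of Sp5 and Nr5a2, a gene lower and a gene higher in continuous cultures, are shown because they carry the matches, which are in capitals (AACAAAG is CTTTGTT on the other strand). The Sp5 window is chr2:70474673-70474972 on the plus strand, with matches that begin at -222 and -104 from the start, and that of Nr5a2 is chr1:136953581-136953880 on the minus strand, with a match that begins at -176. Nr5a2 has another window with no match.
Sp5: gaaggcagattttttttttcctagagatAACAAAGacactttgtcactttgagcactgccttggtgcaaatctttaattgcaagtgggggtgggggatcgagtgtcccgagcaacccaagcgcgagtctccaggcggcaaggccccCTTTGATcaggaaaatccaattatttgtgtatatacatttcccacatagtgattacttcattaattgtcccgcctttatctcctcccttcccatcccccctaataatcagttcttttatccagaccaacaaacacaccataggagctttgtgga
Nr5a2: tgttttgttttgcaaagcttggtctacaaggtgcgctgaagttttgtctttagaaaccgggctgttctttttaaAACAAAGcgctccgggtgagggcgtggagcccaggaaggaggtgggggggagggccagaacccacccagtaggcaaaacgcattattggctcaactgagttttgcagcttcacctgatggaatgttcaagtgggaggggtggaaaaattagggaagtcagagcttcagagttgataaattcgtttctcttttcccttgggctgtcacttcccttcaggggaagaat

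Feedback inhibitors split. Notum, a secreted enzyme that inactivates Wnt ligands, gave 276, 257 and 259 on continuous and 46.2, 47.1 and 53.3 on late arrays, 5.41-fold higher (log2 difference 2.44, SE 0.12, adjusted p = 1.56e-14) and near the ESC mean of 246 ± 7.77. Nkd2, an intracellular inhibitor gene, gave 16.4, 25 and 23.5 against 72.1, 66.5 and 76.8, 3.37-fold lower (log2 difference -1.75, SE 0.31, adjusted p = 0.000114). Among the nuclear partners of beta-catenin, Lef1 gave 20.9, 35.6 and 23.8 against 96.8, 149 and 127, 4.69-fold lower (log2 difference -2.23, SE 0.31, adjusted p = 2.77e-06). Lef1 counts in the Wnt target and formative lists as well, and Fzd2 in the formative and Wnt receptor lists. Tcf7l1 was not called, at 1947, 2127 and 1777 against 1757, 1933 and 1784 (log2 difference 0.09, 95% interval -0.12 to 0.31, adjusted p = 0.686). Of 19 measured genes of the TCF/LEF and beta-catenin machinery, 3 rose and 1, Lef1, fell, about the share called over all genes (19%). Those that rose were Tcf7l2 (1.90-fold) and the corepressor genes Tle1 (1.33-fold) and Tle4 (1.38-fold). Tle1 was not called without late replicate 2 (adjusted p = 0.0685).

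Among 30 measured Wnt ligands, receptors and secreted inhibitors, 3 were higher and 10 lower in continuous cultures, where 19% of all genes were called. Of the 30, 12 were below background in both groups. The ligand gene Wnt8a was below background on all continuous arrays and gave 255, 322 and 277 on late arrays, at least 20.8-fold lower in continuous cultures (adjusted p = 1.44e-07). Wnt5b, another ligand gene, gave 37, 46.8 and 40.2 against 116, 129.6 and 110.5 (2.88-fold lower), and Wnt6 was above background on 1 of 3 continuous arrays and at 45.2, 43.6 and 42.2 on late arrays. Wnt4 and Wnt7b were called lower from values under the background limit, and their difference was 0 with the floor at that limit. Among the receptor genes Fzd7 was 1.55-fold and Fzd2 at least 1.87-fold lower. Porcn, the acyltransferase of Wnt ligands, gave 1068, 1124 and 1036 against 417, 427 and 409 (2.57-fold higher). Sfrp1, a secreted antagonist gene, gave 458, 363 and 434 against 134, 126 and 114 (3.35-fold higher).

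Primitive streak genes were near or below background in many cases (14 of 30 below in both groups), with 4 called higher and 5 lower. Over all genes 19% were called. Fst, the gene of the activin antagonist follistatin, gave 108, 114 and 95.7 on continuous and 1127, 1203 and 1006 on late arrays, 10.5-fold lower (log2 difference -3.39, SE 0.21, adjusted p = 4.32e-13). EpiLC without CHIR99021 had 74.4 ± 5.57, so the late arrays alone stood high among the 4 wild-type groups. Fgf8, a streak ligand gene, was below background in continuous cultures and gave 57.7, 72.9 and 56.8 in late ones (at least 4.56-fold, adjusted p = 0.0013). Like Wnt8a and Fst, it was at its highest of the 4 groups in late cultures. Evx1, a homeobox gene of the streak, gave 57.3, 58.6 and 48.7 against 67, 71.5 and 77 and was not called (adjusted p = 0.386), both groups being above the EpiLC mean of 9.83 ± 1.14. Gsc, an organizer gene, was higher in continuous cultures, at 27.7, 28.8 and 37.3, and above background on 1 of 3 late arrays, at 4.60, 8.40 and 15.1 (log2 difference 1.89, SE 0.36, adjusted p = 0.000222). Mixl1 and Mesp1 were below background in both groups, Eomes read at most 15, and T had no named probe. Tlnrd1, listed here under an older symbol and not a streak factor, was among the genes called higher, as was Pdgfra from values below background, whose difference was 0 with the floor at the background limit.

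Nodal ligands and antagonists divided in a similar way. Lefty2, an inhibitor of Nodal and its target, gave 838, 1066 and 872 on continuous and 184, 202 and 195 on late arrays, 4.76-fold higher (log2 difference 2.25, SE 0.20, adjusted p = 7.08e-10) and above the ESC mean of 575 ± 23.3. Lefty1, the related inhibitor gene, gave 1521, 1461 and 1274 against 1318, 1613 and 1351, with overlapping arrays and no call (log2 difference -0.01, 95% interval -0.34 to 0.33). Nodal was 1.54-fold lower, at 264, 299.9 and 226 against 370.2, 456 and 389.5 (log2 difference -0.63, SE 0.13, adjusted p = 0.000519), and still above EpiLC (85.7 ± 4.61). In all, 3 of 18 pathway genes rose and 5 fell, where 19% of all genes were called. Lefty2, Fst and Nodal were shared with the streak list. Inhbb, among those that rose, had a difference of 0.16 with the floor at the background limit and was not called there. Acvr2b, among those that fell, was not called without continuous replicate 1 or 3 or late replicate 1 or 2 (adjusted p = 0.0839 to 0.39). Foxh1, the DNA-binding partner of Smad2, was 1.97-fold lower and Skil, a Smad repressor gene, 1.79-fold lower. Of 21 genes of the BMP pathway and its Id targets, 6 rose and 3 fell. Bmp4 gave 289.9, 315 and 342 against 95.5, 74 and 82.8, 3.77-fold higher (log2 difference 1.91, SE 0.10, adjusted p = 2.48e-14). Id3 (2.04-fold) and Id4 (at least 4.95-fold), whose products block differentiation factors, were higher as well, and Id2 was below background in continuous cultures against 14.3, 18.9 and 19.7 on late arrays. With the floor at the background limit Id2 was not called (log2 difference -0.36, adjusted p = 0.204). Id1 rose as well but was not called without late replicate 2 (adjusted p = 0.0756), and the antagonist gene Chrd was 2.01-fold lower.

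**Figure D3:**
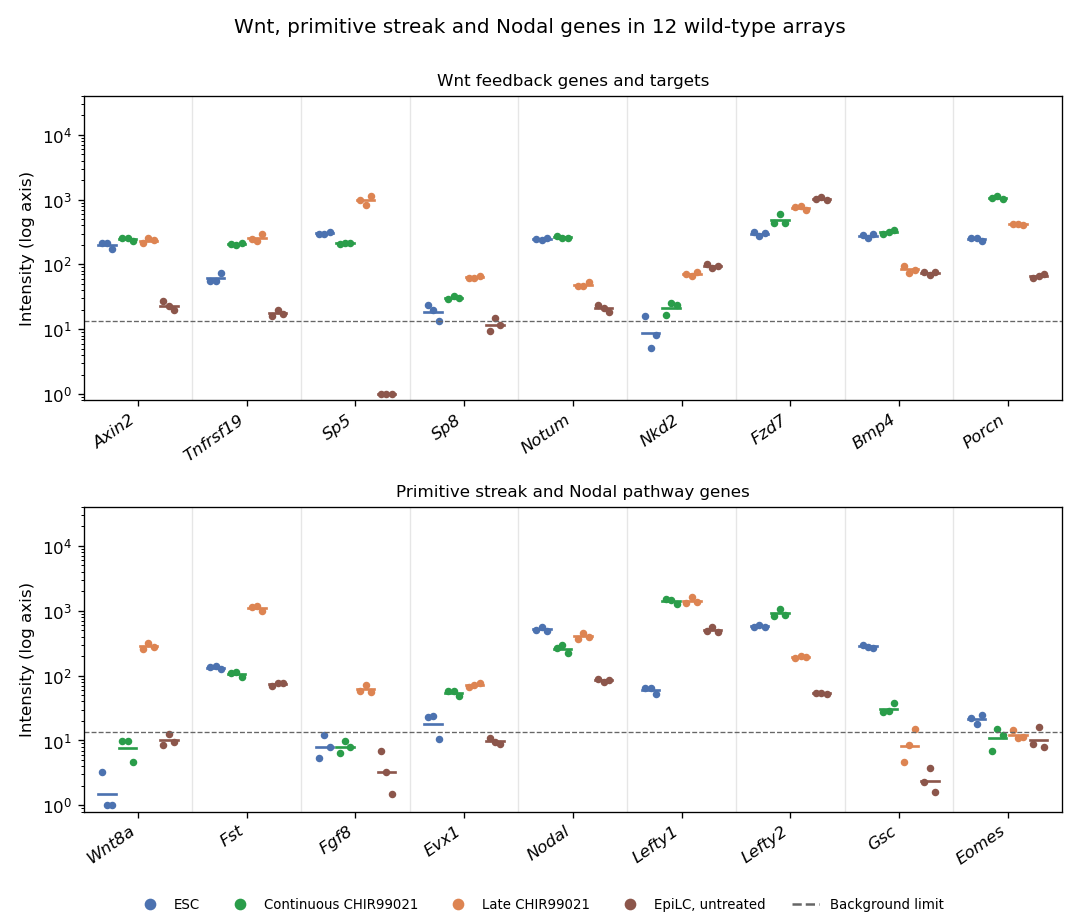
Intensity (log axis) of Wnt feedback and ligand genes (top) and primitive streak and Nodal genes (bottom) on each of 12 wild-type arrays; points are arrays, bars are means of log2 values, values under 1 are drawn at 1 and the dashed line is the background limit of 13.6. Axin2 overlaps between continuous and late arrays, whereas Sp5 reads 210 to 213 against 833 to 1147 and Fst 95.7 to 114 against 1006 to 1203.

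Genes of the actin cytoskeleton and its contractile programme had the lowest median difference of the 33 lists (-2.34). Of 17 measured members 13 were lower in continuous cultures and none higher, where 8.82% of all genes were called lower. The muscle actin genes Acta1 and Actc1 read under 1 on all continuous arrays. On late arrays Actc1 gave 744, 771 and 714 and Acta1 456, 391 and 378, differences of at least 54.6-fold (adjusted p = 4.04e-17) and at least 29.9-fold (adjusted p = 7.45e-12). Both were also under 1 on average in ESC. Acta2, the smooth muscle actin gene, gave 138, 138 and 134 against 3338, 3557 and 3561, 25.5-fold lower (log2 difference -4.67, SE 0.34, adjusted p = 1.88e-11). The tropomyosin genes followed, Tpm1 at 484, 492 and 473 against 3078, 3096 and 2868 (6.24-fold) and Tpm2 at 33.4, 34.3 and 45.1 against 400.2, 396 and 455 (11.2-fold). Zyx, a focal adhesion gene, gave 1247, 1211 and 1180.3 against 7239, 6506 and 7069.5 (5.72-fold lower). Srf, the factor that drives actin genes, was 2.90-fold lower, and the YAP and Srf targets Ccn2 and Ccn1 were 2.45-fold and at least 4.91-fold lower. Pdlim3, an actin-associated LIM gene outside the list, was above background on 2 of 3 continuous arrays and at 425, 430.5 and 382 on late arrays, with the largest fall of any called gene whose means were above background (32-fold). The myosin light chain gene Mylpf went against this direction, at 1463, 1600.3 and 1317 against 168, 197 and 183 (8.0-fold higher, log2 difference 3.00, SE 0.12, adjusted p = 8.12e-17). The fibroblast markers Col1a1, Col1a2, Col3a1, Lum, Dcn and Postn were below background in both groups.

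Feedback and immediate early genes of the FGF/ERK pathway were lower in continuous cultures in 12 of 26 measured members and higher in none (median -0.65). Over all genes 8.82% were called lower. Both media held 12 ng/mL Fgf2, but the labels give no duration for the continuous cultures. Egr1, an immediate early factor gene, gave 89.3, 109.9 and 88.6 on continuous and 681, 704 and 717 on late arrays, 7.34-fold lower (log2 difference -2.88, SE 0.20, adjusted p = 7.12e-12). The ERK phosphatase genes Dusp4 and Dusp6 gave 146, 173 and 142 against 808, 855 and 793 (5.35-fold) and 1458, 1312 and 1429 against 2134, 2127 and 2132 (1.52-fold). Unlike Dusp4 and Dusp6, which were highest in EpiLC, Egr1 was highest in late cultures (EpiLC 224 ± 16.6). Spred1, the gene of an ERK pathway inhibitor, was 1.89-fold lower. Etv4, an ERK-induced ETS factor gene, was not called, at 549.8, 608 and 537 against 619, 703 and 569 (adjusted p = 0.405). The count of lower members was 6 when the spread was taken from the 6 arrays alone, and 9 without continuous replicate 2. Among 15 LIF and Stat3 genes 4 rose and 3 fell. Socs3, the feedback inhibitor of Stat3, was above background on 2 of 3 continuous arrays (7.60, 24.2 and 18.2) and gave 163, 156 and 141 on late arrays (10.2-fold lower, log2 difference -3.35, SE 0.23, adjusted p = 4.53e-12), whereas the ESC mean in LIF was 1258 ± 181. Klf4, the receptor subunit gene Il6st and Mras were among those higher, and Stat3 was not called (adjusted p = 0.656).

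Most genes listed for the integrated stress response were lower in continuous cultures. In this response the factor Atf4 answers amino acid shortage and other stress. Of 18 measured genes 13 fell and 1 rose (median -0.89), where 8.82% of all genes were called lower. Atf4 itself was among the 4 not called, with Asns, Shmt2 and Aldh18a1. Over all ways of processing, the log2 difference was -0.284 to 0.166 for Atf4 and 0.107 to 0.3 for Asns. Chac1, a glutathione-degrading enzyme gene, gave 1056, 1164 and 1195 against 3684, 3715 and 3463, 3.18-fold lower (log2 difference -1.67, SE 0.17, adjusted p = 2.12e-08). Ddit3, the gene of Chop, gave 103, 66.5 and 84.2 against 296, 256 and 246 (3.18-fold), and Cebpb, a leucine zipper factor gene, 83.8, 81.2 and 59.3 against 410.0, 527 and 364 (5.80-fold). No continuous array reached a late array for these genes, and the EpiLC means were 3944 ± 225, 217 ± 23.2 and 399.6 ± 80.3 in the same order. Atf3 was above background on 1 of 3 continuous arrays and gave 109.9, 82.7 and 105 on late arrays. Trib3 (2.80-fold), Vldlr (4.65-fold) and the serine synthesis gene Phgdh (1.75-fold) were lower, and the amino acid transporter gene Slc7a3 was 1.33-fold higher.

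Among 17 genes of p53 and apoptosis, 11 fell and 2 rose (median -0.86), where 8.82% of all genes were called lower. The death-promoting BH3 gene Pmaip1 gave 24.9, 34.9 and 27.4 against 126, 162 and 149.9, 5.05-fold lower (log2 difference -2.34, SE 0.29, adjusted p = 4.83e-07). Others of that class were lower too, Bik 2.71-fold, Bcl2l11 1.86-fold and Bbc3 1.84-fold, while Bmf was 2.24-fold higher. Gadd45g, a growth arrest gene, gave 427, 484 and 444 against 1331, 1119.9 and 1374 (2.81-fold lower), and the p53 target Ccng1 was 1.41-fold lower. Cdkn1a, another p53 target, was not called, with a log2 difference of -0.304 to -0.129 over all ways of processing. Genes of the unfolded protein response did not share this direction, 3 of 11 being higher (among them Xbp1, 1.52-fold) and 1 lower (Herpud1, 1.47-fold). Sesn2 belongs to both the stress and the p53 lists and was 1.95-fold lower.

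**Figure D4:**
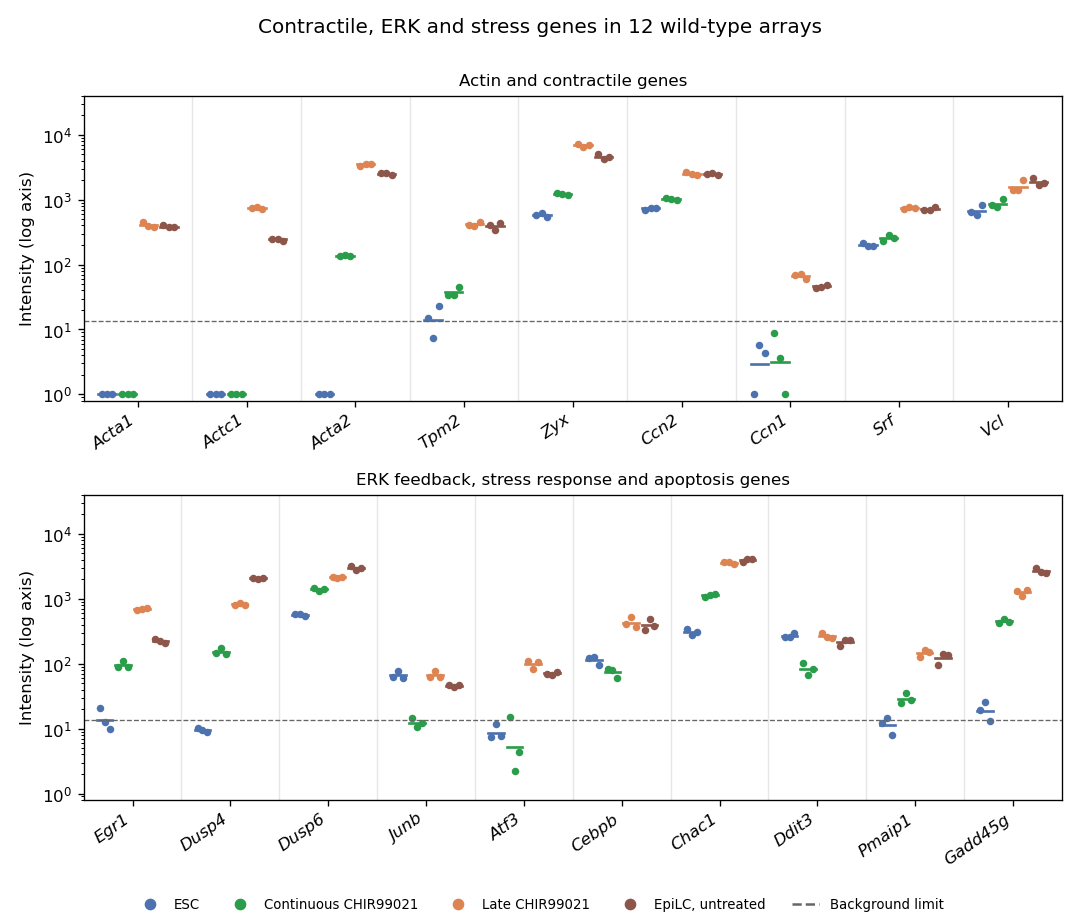
Intensity (log axis) of actin and contractile genes (top) and of ERK feedback, stress response and apoptosis genes (bottom) on each of 12 wild-type arrays; points are arrays, bars are means of log2 values, values under 1 are drawn at 1 and the dashed line is the background limit of 13.6. Acta2 reads 134 to 138 on continuous arrays and 3338 to 3561 on late arrays, and Egr1 88.6 to 110 against 681 to 717.

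Metabolic genes moved in both directions, where 19% of all genes were called. Glycolysis and hypoxia genes were lower in 9 and higher in 4 of 22 measured members. Ldha, lactate dehydrogenase, gave 3970.0, 3708 and 3994 on continuous and 7349.5, 8296 and 7623 on late arrays, 1.99-fold lower (log2 difference -0.99, SE 0.11, adjusted p = 1.18e-07), and the glucose transporter gene Slc2a1 was 2.02-fold lower. Without late replicate 1 the higher genes of this list numbered 2. Of the phosphofructokinase genes, Pfkl was 1.92-fold lower and Pfkp 1.95-fold higher. Vegfa had probes called in opposite directions. Respiratory chain genes were higher in 4 and lower in none of 21, about the share called over all genes (19%). Only 2 of the 21 were below background in both groups, against 7539 of 16593 among all genes. The largest difference was that of the cytochrome oxidase gene Cox7a1 at 544, 497 and 485 against 177, 194 and 139 (3.02-fold). Glutathione and xenobiotic enzyme genes were higher in 7 and lower in 4 of 19. Gsta3, a glutathione transferase gene, gave 858, 809 and 852 against 144, 140.5 and 143, 5.89-fold higher (log2 difference 2.56, SE 0.09, adjusted p = 2.96e-18), and Gstm1 and Nqo1 were 2.48-fold and 2.75-fold higher. Cholesterol genes were lower in 4 of 16, by at most 1.38-fold, and in 1 without continuous replicate 3 or late replicate 3. The list of glycogen and Gsk3 metabolism genes had 1 higher (Renbp, 1.64-fold) and 2 lower (Bhlhe40 and Gyg) of 12. Renbp and Bhlhe40 are not enzymes of glycogen metabolism. Gyg was the only glycogen gene called, and was not called without continuous replicate 3 (adjusted p = 0.153). The same held without late replicate 1 or 3 (adjusted p = 0.0708 and 0.169). In the cell cycle list 4 of 22 rose and 3 fell. Without continuous replicate 2 only 1 was higher, and without continuous replicate 1 or any 1 late array 2 were. Its cyclin D genes were opposed, with Ccnd3 at 2180.0, 2254 and 2129 against 1012, 1035 and 930.1 (2.21-fold higher) and Ccnd2 at 159, 219 and 187 against 809, 877 and 584 (3.99-fold lower).

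Matrix and junction genes changed in both directions, where 19% of all genes were called. Of 13 basement membrane and matrix genes 6 were higher and 4 lower, or 2 lower without continuous replicate 3. The linker gene Nid1 gave 221, 195 and 246 against 37.3, 26.5 and 34.7 (6.75-fold higher, log2 difference 2.76, SE 0.15, adjusted p = 3.64e-14) and the laminin gene Lama1 237, 216 and 219 against 71.9, 60.7 and 66.2 (3.38-fold higher). The collagen IV genes Col4a1 and Col4a2 went down together, 2.28-fold and 2.44-fold. Lama1 was lowest of the 4 wild-type groups in late cultures, under the EpiLC mean of 394 ± 25.2 as well. Of 18 junction and epithelial genes 6 were lower and 1 higher, with 3 lower when late replicate 3 was left out. The tight junction gene Cldn6 gave 366, 324 and 309 against 1443, 1586 and 1369 (4.41-fold lower, log2 difference -2.14, SE 0.11, adjusted p = 2.54e-14), and the splicing factor gene Esrp1 and Cdh1, the gene of E-cadherin, were 3.20-fold and 1.52-fold lower. Cdh1 was not called without continuous replicate 2 (adjusted p = 0.0981) or late replicate 3 (adjusted p = 0.108). Zeb1, a repressor of epithelial genes, was 2.35-fold higher, and Cdh2 was below background in both groups.

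Germline and methylation-sensitive genes were higher in 3 and lower in 2 of 17, where 19% of all genes were called. The RNA-binding gene Dazl, active in germ cells, gave 496, 489 and 598 against 167, 144 and 187 (3.18-fold higher, log2 difference 1.67, SE 0.14, adjusted p = 1.55e-10), and Taf7l, another gene of germ cells, gave 160.1, 139.7 and 161 against 491, 447 and 529 (3.18-fold lower). Of 10 DNA methylation genes 2 rose and 4 fell. The cofactor gene Dnmt3l was 1.17-fold lower and the maintenance genes Dnmt1 and Uhrf1 were 1.19-fold and 1.25-fold higher. Each of these 3 lost its call without some single arrays (adjusted p up to 0.157). Higher genes numbered 1 without continuous replicate 2 or 3 or any 1 late array, and lower genes 2 without continuous replicate 3 or late replicate 1. None of 8 genes of the 2-cell-like state was called in either direction. Posterior and Hox genes were higher in 3 of 19, a share under the 19% of all genes called, with Meis1 and Meis2 at 2.40-fold and 2.02-fold. The other was Hoxd9, the only Hox gene called. With the floor at the background limit its difference was 0.14 and it was not called (adjusted p = 0.72).

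Genes listed for other lineages were also called, where 19% of all genes were. Of 22 neural genes 2 were higher and 4 lower. Sox21 gave 743, 879 and 693 on continuous and 112, 117 and 117 on late arrays, 6.66-fold higher (log2 difference 2.73, SE 0.09, adjusted p = 2.13e-18), with an ESC mean of 1355 ± 39.4. The intermediate filament gene Nes was below background in continuous cultures and gave 99, 168 and 132 in late ones (at least 9.56-fold lower). Of 17 extraembryonic endoderm genes 3 were higher and 3 lower, all but Hnf4a and Amn being counted in the matrix list as well. Amn was not called without continuous replicate 1 (adjusted p = 0.0582). Among 14 trophoblast genes Tead4 was 6.75-fold higher, at 169.6, 162 and 138 against 25.2, 25.1 and 19.5, and 2 were lower, or 1 without continuous replicate 3 or late replicate 1. Fibroblast and mesenchymal genes were higher in 2 (Vim and Col5a1) and lower in 4 of 18 (Acta2, Thy1, Dcn and Tagln, the last pair below background in both groups and at a difference of 0 with the floor at that limit). Blood and endothelium genes were higher in 2 and lower in 2 of 13. None was higher without continuous replicate 1 or 2 or late replicate 1 or 3, and 1 was without either other array. Etv2, an ETS factor gene of blood and vessel precursors, gave 49, 62.8 and 48.2 against 324, 389 and 292 (6.28-fold lower, log2 difference -2.65, SE 0.16, adjusted p = 3.14e-13) with a still higher EpiLC mean of 647 ± 15.6. Of 8 housekeeping genes only Gusb was called (2.08-fold lower), and Gapdh was not called (log2 difference -0.02, adjusted p = 1.00).

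**Figure D5:**
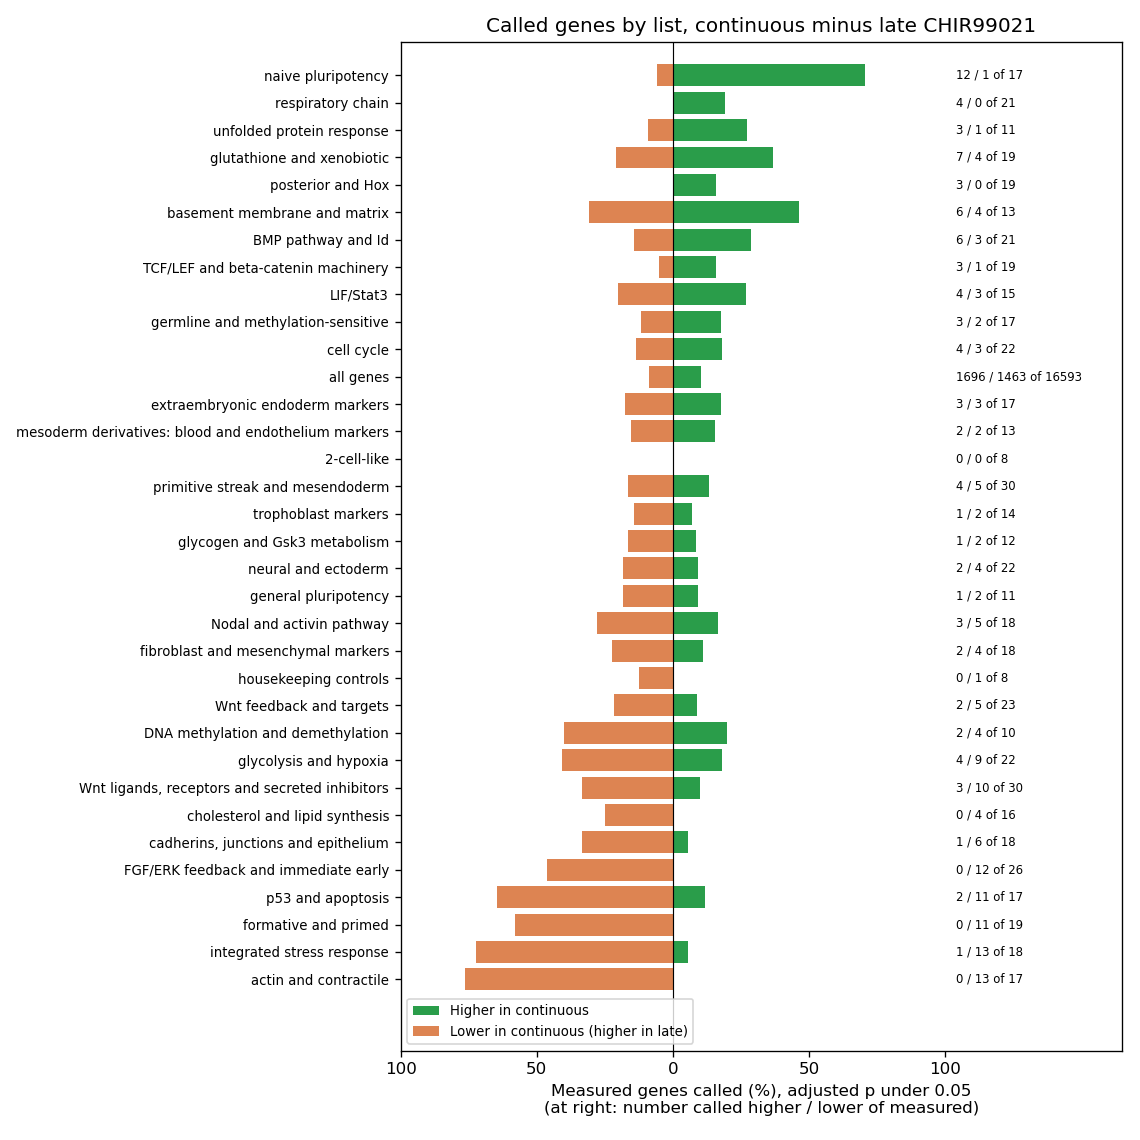
Percent of measured genes called higher (right) and lower (left) in continuous than in late cultures for 33 gene lists and for all genes, ordered by the difference of both shares, with the counts printed beside the bars. Naive pluripotency stands at one end with 12 higher and 1 lower of 17, and actin and contractile genes at the other with 0 higher and 13 lower of 17.

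Outside the lists, the largest rises among genes measured in both groups included Chst8, a sulfotransferase gene, at 339.8, 339.7 and 318 against 51.7, 43.2 and 37.3 (7.61-fold, log2 difference 2.93, SE 0.13, adjusted p = 1.14e-15). Lpar1, a receptor gene for lysophosphatidic acid, gave 125, 103 and 139 against 6.50, 18.2 and 35.7 (7.51-fold, log2 difference 2.91, SE 0.39, adjusted p = 1.96e-06), with late arrays that differed among themselves and 1 of them below background. The matrix gene Crtac1 (7.42-fold), the chromatin gene Arid5b (6.71-fold), 2410137M14Rik (6.72-fold), Septin1 (6.62-fold), Ildr1 (6.57-fold) and Prss35 (6.51-fold) completed the 15 largest rises. Crtac1 was above background on 1 of 3 late arrays and Arid5b on 2. Some genes were below background in all late cultures. Of these, Cabs1 gave 162, 208 and 178 on continuous arrays (at least 13.4-fold higher), Aoah 140.2, 150.5 and 127 (at least 10.2-fold) and Lrrc15 129, 138 and 139.9 (at least 9.97-fold). The class II antigen gene H2-Eb1 gave 109, 95.2 and 108 (at least 7.62-fold) and Spic, an ETS factor gene, 61.8, 78.7 and 69.2 (at least 5.11-fold). All 5 were above background on all continuous arrays, and each except Cabs1 and Aoah had an ESC mean over the continuous values.

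Among the largest falls, Plac8 gave 35.3, 18.2 and 30.4 on continuous and 408, 472 and 458 on late arrays (16.5-fold lower, log2 difference -4.05, SE 0.19, adjusted p = 1.30e-15). The chemokine gene Cxcl12 gave 105, 135 and 86.4 against 1056, 1206 and 1206 (10.8-fold lower, log2 difference -3.43, SE 0.49, adjusted p = 4.04e-06), close in late cultures to its EpiLC mean of 1078 ± 108. Flt1, a VEGF receptor gene, gave 18.3, 19 and 24.4 against 172, 193 and 179 (8.89-fold lower, log2 difference -3.15, SE 0.54, adjusted p = 6.16e-05). With an EpiLC mean of 18.8 ± 2.84, Flt1 stood high in late cultures only, as Fst and Wnt8a did among the 4 groups. Bst2 (8.28-fold), Syt4 (7.86-fold), the cap-binding gene Eif4e3 (7.85-fold), Scarf2 (7.82-fold) and the phosphatase subunit gene Ppp4r4 (7.68-fold) were the others. Syt4 was above background on 1 of 3 and Ppp4r4 on 2 of 3 continuous arrays. Below background on all continuous arrays were Car4, a carbonic anhydrase gene, at 353, 368 and 335 on late arrays (at least 25.9-fold lower), and Hapln4, a matrix linker gene, at 205, 227 and 188 (at least 15.1-fold lower). Car4 had an EpiLC mean of 1319.5 ± 117, above that of late cultures.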

How the data were processed

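Expression was measured on 47 arrays, of which 39 in 13 groups of 3 entered the fit; 8 arrays in other media were fitted apart. The authors deposited linear intensities that, by their values, are background-subtracted and quantile-normalized in 2 sets. The submitters' processing notes name lumi and limma without versions. Here a floor of 1, a log2 transform and quantile normalization over the 39 arrays were applied, and a means model was fitted in limma 3.58.1 (R 4.3.3; lmFit, eBayes), with Benjamini-Hochberg adjustment over 25697 probes and a threshold of 0.05. Of the probes 23978 had 1 gene symbol and 1719 none in the platform annotation, which gave 16593 genes; the brightest probe stood for a gene. Named are the 15 largest called rises and falls above background in both groups, the 5 largest bounds each way, members of 33 gene lists (528 of 589 genes measured) and 11 pathway genes. Members, lists and tests were chosen with earlier results of these data known. Promoter windows came from RefSeq (GRCm38.p6). The code was tested on simulated data. The number of arrays limits precision. Alternatives were other normalizations, floors, filters, eBayes settings, sets of arrays, a replicate block and leaving out each array. Figures used matplotlib 3.10.9 under Python 3.11.15. Detection p values and unnormalized scans were not used here.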

Additional observations from a re-analysis of the deposited data

How the results depend on the processing

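Without any one of the 6 arrays, 3690 to 4046 probes were called between continuous and late cultures. The ranges without 1 array were 4354 to 4583 for continuous against EpiLC, 1360 to 1497 for late against EpiLC and 5078 to 5532 for continuous against ESC. With the spread estimated from the groups compared alone, 2526 probes were called between continuous and late cultures and 775 between late cultures and EpiLC, from fits with fewer arrays. All other settings kept these counts within 1.5 times. Among them, the 12 wild-type arrays alone gave 3633 called probes between continuous and late cultures. Of 240 called genes among list members and other named genes, 151 kept their call in every setting and none took the opposite sign. The limma fit of the compared groups alone lost 78 of them, among them Gbx2 (adjusted p = 0.136), Klf4 (adjusted p = 0.0511) and Lpar1 (adjusted p = 0.0802). The 12 wild-type arrays alone lost 33, and raising the floor to the background limit lost 15. Between 20 and 27 were lost without a given single array, and 51 without at least 1 of the 6. Over the settings 10 to 12 naive genes were higher, 11 formative, 10 to 13 contractile, 9 to 12 p53 and 11 to 13 stress response genes lower. Other counts moved more: FGF/ERK 6 to 12 lower, Wnt ligands and receptors 4 to 11 lower, streak 2 to 5 higher and 3 to 5 lower, LIF/Stat3 1 to 5 higher, BMP 3 to 6 higher, TCF/LEF 1 to 3 higher, DNA methylation 0 to 2 higher, cell cycle 1 to 5 higher, respiratory chain 2 to 7 higher, and junctions 3 to 8, glycolysis 6 to 11 and cholesterol 1 to 5 lower. The cause was not tested. Same-numbered continuous and late arrays did not deviate together in every pair (r = -0.047, 0.224 and 0.362), so the numbers were not read as pairs. A replicate block gave 4541 called probes, and not every array correlated best with its own number. Under cyclic loess 2099 probes were higher and 2182 lower. Genes near the background limit have only coarse folds.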

Other observations

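For genes with a mean intensity over 100, the median difference between continuous and late cultures ranged from -0.03 on chromosome 5 (339 genes) to 0.07 on chromosome 16 (156 genes), given as values without a test.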
